A study of Coturnix japonica with 12 samples.

Results

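The genes described here encode the proteins of the cytosolic ribosome. They were chosen by name from the 16013 genes of the deposited table: a symbol of the RPL or RPS form with a number, or RPSA, RPLP0, RPLP1 or RPLP2, and a description that holds the words ribosomal protein and neither mitochondrial nor kinase. The rule gave 76 genes, of which 46 belong to the large subunit (3 of them to its stalk) and 30 to the small subunit. Their transcripts were measured by RNA sequencing in Müllerian ducts of female Japanese quail (Coturnix japonica) embryos, in 4 groups of 3 samples. The groups were left ducts and right ducts of embryos given ethynylestradiol (EE), a synthetic oestrogen, in sesame oil, and left ducts and right ducts of embryos given sesame oil alone, all in surrogate eggshell culture and all exposed over embryonic days 3 to 12. The labels give no dose, no day of dissection and no strain, and they do not say whether the 3 samples of a group came from separate embryos, so p-values measure the spread between these samples, which may be technical.

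The cytosolic ribosome consists of a small subunit, which reads the mRNA, and a large subunit, which forms the peptide bond, and most of its proteins are present once in each particle. The mRNAs of these proteins are among the most abundant of growing cells and share a pyrimidine tract at the very start of the transcript (the 5-prime TOP motif), through which the mTOR pathway and the protein LARP1 set their translation and stability together. In female birds only the left Müllerian duct becomes an oviduct, while its right counterpart shrinks, so the oil samples set a growing organ beside a regressing one.

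Total counts were 13303458 to 23621985 per sample, and 12113 genes passed the filter of at least 1 FPKM (counts scaled to exonic length and to the sample's total count) in at least 3 samples. All 16 genes of a list of Müllerian duct transcripts, PAX2, LHX1, EMX2 and WNT7A among them, had counts in every sample. Haemoglobin transcripts, a sign of blood in the tissue, were 1.68% ± 0.599 of all counts in left EE ducts, 3.83% ± 2.01 in right EE ducts, 2.13% ± 0.834 in left oil ducts and 8.76% ± 3.49 in right oil ducts (SD over 3 samples). A list of 14 skeletal muscle transcripts summed to 17.8 to 412 CPM (counts scaled to a fixed library total) in right oil ducts and to 18.1 to 35.3 CPM in the other 3 groups. No 2 samples of a group agreed within counting noise.

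Ribosomal protein transcripts were among the most abundant of the ducts. On a per-length scale, FPKM scaled with the sample factors of the TMM method, the median of the 75 members that passed the filter was 1452 FPKM, against 11.2 FPKM for all 12113 genes tested. Of the 70 genes above 1000 FPKM, 53 were members, and 63 of the 100 most abundant genes were members. The highest was RPS3A, a protein near the mRNA exit of the small subunit (chromosome 4, 29294857 to 29298189), with a mean of 5584 FPKM over the 12 samples. RPS12 averaged 3333 FPKM and RPLP0, the base of the stalk to which elongation factors bind, averaged 3081 FPKM. RPL10, a late-joining protein beside the catalytic centre, averaged 3289 FPKM. The large subunit's 45 tested members had a median of 1482 FPKM, and the small subunit's 30 a median of 1412 FPKM. Level and exonic length had a Spearman rho of 0.356 over the 75 genes, which share libraries and are not independent.

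**Figure D1:**
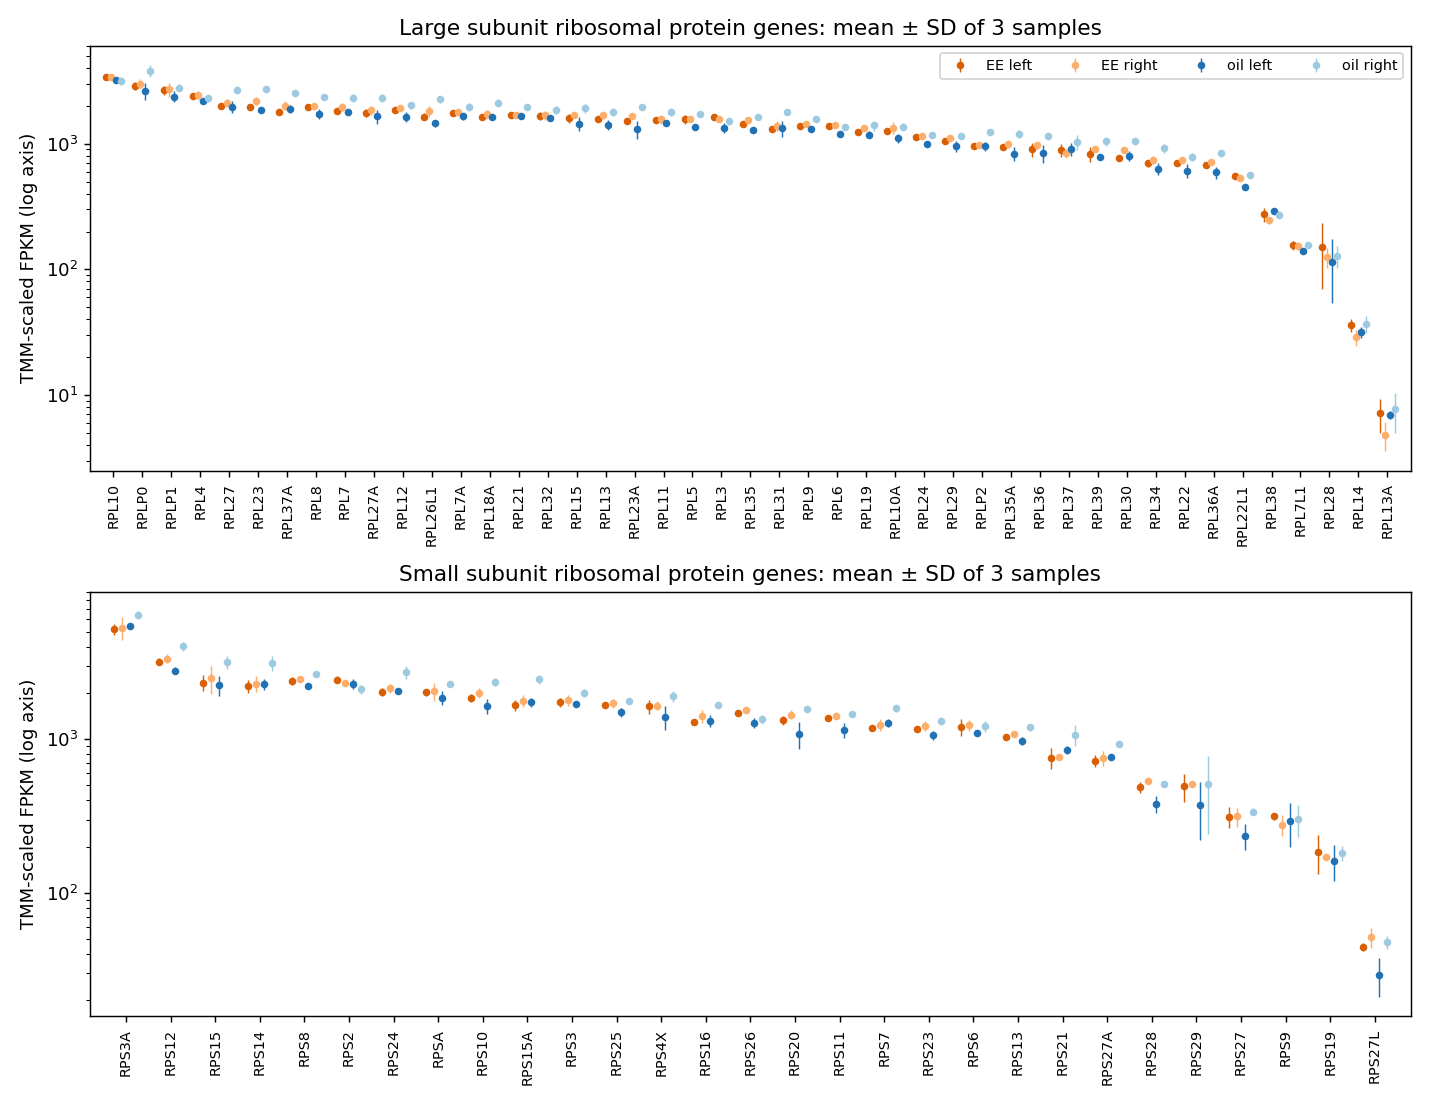
Mean level with its SD (n = 3 samples) of 74 of the 75 tested ribosomal protein genes in the 4 groups, as TMM-scaled FPKM on a log axis, large subunit above and small subunit below, ordered by the mean over all samples. Most members lie within a narrow band above or near 1000 FPKM, with a short tail on the right, and right oil ducts hold the highest point of most members.

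A few members stood far below the rest. RPL3L, a counterpart of RPL3 that mammals express mainly in heart and skeletal muscle, had 28 counts in all 12 samples together, with samples at 0 in every group, and did not pass the filter. The lowest tested members were RPL13A at 6.64 FPKM, RPL14 at 33.4 FPKM, RPS27L at 43.2 FPKM, RPL28 at 129.8 FPKM and RPL7L1 at 151 FPKM. Names with a final L mark a divergent copy of a standard ribosomal protein, as in RPS27L and RPL7L1. RPL13A, RPL28, RPS9 and RPS19 are the 4 members on scaffolds not placed on a chromosome. Their median was 152 FPKM, against 1521 FPKM for the 71 placed members tested, and whether part of their reads was counted elsewhere was not tested.

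The first comparison set left against right ducts in oil, the sides that differ in fate without added oestrogen. Ribosomal protein genes were lower in left than in right oil ducts nearly as a body: 57 of the 75 tested fell and 0 rose (edgeR quasi-likelihood, Benjamini-Hochberg adjusted p under 0.05 over all genes tested, as for every adjusted p given here). That is 76% of the members, where 36.5% of all tested genes were called in this comparison and 18.1% were called lower. The median log2 ratio, left minus right, was -0.33 over the members, a fold of 0.798, and -0.004 over all tested genes. The sign was negative for 72 of 75 members. In bulk tissue, fewer cells of a type and less RNA per cell cannot be told apart.

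The difference was modest in size, and most members shared its sign. Ratios ran from -0.71 to 0.11, and 4 members differed by at least 1.5-fold. The SD over members was 0.164, beside a median SE of 0.089 for a single ratio. All tested genes had an SD of 0.693, but most of them have far lower levels, so these SDs are not matched for level. The subunits gave similar counts: 34 of 45 large subunit genes fell, with a median of -0.33, and 23 of 30 small subunit genes fell, also with a median of -0.33. In 62 members the 3 left samples all lay below the 3 right samples, as they did in 23.6% of all tested genes, and in 0 members they lay above, as in 23.9% of all genes. Neither level (Pearson r = -0.161) nor exonic length (r = 0.194) tracked the ratio closely over the 75 genes.

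**Figure D2:**
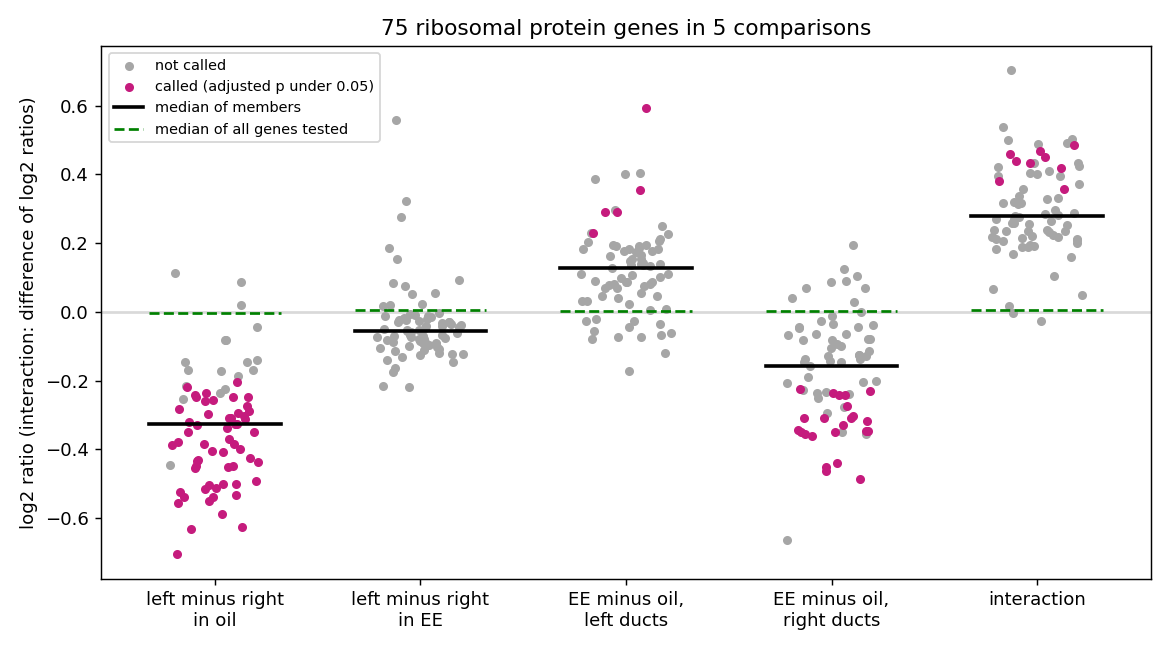
Log2 ratio of each of the 75 tested ribosomal protein genes in the 4 comparisons of groups, and the difference of the sides' log2 ratios between EE and oil (interaction), with called genes in colour. The members' median (solid bar) lies at -0.33 for left minus right in oil and at -0.055 in EE, while the median of all genes tested (dashed bar) stays near 0.

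RPL26L1 (chromosome 13, 11027635 to 11030578), a close copy of the large subunit protein RPL26, which is not itself among the members, had 1505, 1508 and 1355 FPKM in left oil ducts, against 2195, 2428 and 2137 FPKM in right oil ducts. Every left sample was below every right sample (log2 ratio -0.63 ± 0.09 (SE), adjusted p = 5.84e-05). RPL23, which sits at the interface of the subunits (chromosome 27, 3753860 to 3755724), had 1752, 1883 and 1888 FPKM in left and 2819, 2686 and 2619 FPKM in right oil ducts. It too separated the sides fully and had the lowest p among the members (log2 ratio -0.56 ± 0.076 (SE), adjusted p = 3.82e-05). RPL23A, which lines the exit of the peptide tunnel, had 1496, 1329 and 1089 FPKM in left and 1931, 1947 and 2011 FPKM in right oil ducts, with the widest spread on the left (log2 ratio -0.59 ± 0.098 (SE), adjusted p = 0.000244).

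RPS27L, a copy of RPS27 that p53 induces in human cells (chromosome 10, 3323785 to 3327304), had the lowest ratio of all members, from a low level: 38.8, 24.4 and 24.7 FPKM in left and 52.5, 47.8 and 43.4 FPKM in right oil ducts. Its right samples lay close together while 1 left sample came near them (log2 ratio -0.71 ± 0.17 (SE), adjusted p = 0.00489). RPS12, in the small subunit's beak, had 2911, 2827 and 2616 FPKM in left and 4241, 4136 and 3705 FPKM in right oil ducts (log2 ratio -0.53 ± 0.085 (SE), adjusted p = 0.000172).

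Of the divergent copies tested beside the gene they resemble, RPS27L and RPL22L1 fell with their counterparts and RPL7L1 was not called. RPS27, of which RPS27L is the copy, had 228, 286 and 194 FPKM in left and 330.1, 324 and 356 FPKM in right oil ducts (log2 ratio -0.51 ± 0.14 (SE), adjusted p = 0.00864). RPL22L1 had 449, 444 and 468 FPKM in left and 562, 577 and 539 FPKM in right oil ducts, 2 sets that were tight and far apart (log2 ratio -0.30 ± 0.072 (SE), adjusted p = 0.00379). RPL22, which in mammals represses its copy RPL22L1, also fell (log2 ratio -0.37 ± 0.095 (SE), adjusted p = 0.00626), so both members of the pair were lower on the left. RPL7 fell (log2 ratio -0.39 ± 0.08 (SE), adjusted p = 0.0014), while its copy RPL7L1 did not pass the test (log2 ratio -0.17 ± 0.081 (SE), adjusted p = 0.115). RPL3, at the catalytic centre, did not pass either (log2 ratio -0.17 ± 0.088 (SE), adjusted p = 0.144), and RPS4X, whose mammalian counterpart lies on the X chromosome, fell (log2 ratio -0.45 ± 0.12 (SE), adjusted p = 0.00841). Reads of close copies may have been shared between them, since the handling of multiply mapping reads is not given in the sources used here.

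Of the stalk, RPLP0 had 2945, 2759 and 2177 FPKM in left and 3748, 4243 and 3442 FPKM in right oil ducts, with no overlap (log2 ratio -0.54 ± 0.12 (SE), adjusted p = 0.00225). RPLP2, which pairs with RPLP1 in the mobile arm of the stalk, fell as well (log2 ratio -0.38 ± 0.082 (SE), adjusted p = 0.00193). RPLP1 had 2568, 2438 and 2118 FPKM in left and 2988, 2683 and 2713 FPKM in right oil ducts, groups that did not overlap, but its ratio did not pass the test (log2 ratio -0.24 ± 0.11 (SE), adjusted p = 0.0932).

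Of 5 members named for roles outside protein synthesis (RPL5, RPL11, RPS27A, RPSA and RPS6), 4 fell, beside 76% of all tested members. RPL5 and RPL11, which bind 5S rRNA and, when ribosome assembly is disturbed, the p53 regulator MDM2, both fell. RPL5 had 1359, 1342 and 1391 FPKM in left and 1713, 1717 and 1699 FPKM in right oil ducts, with very little spread on either side (log2 ratio -0.33 ± 0.077 (SE), adjusted p = 0.0036). For RPL11 the values were 1465 ± 88.0 FPKM in left and 1795 ± 133 FPKM in right oil ducts (SD; log2 ratio -0.29 ± 0.085 (SE), adjusted p = 0.0133), and its call was lost without left oil replicate 3 (adjusted p = 0.0519). RPS27A, made as a fusion with ubiquitin, fell (log2 ratio -0.29 ± 0.09 (SE), adjusted p = 0.0208), though not with any 1 of 4 oil samples left out (adjusted p 0.055 to 0.0663). RPSA, also described as a laminin receptor, fell narrowly (log2 ratio -0.28 ± 0.10 (SE), adjusted p = 0.0451) and lost its call in 8 of the fits that left out 1 sample. RPS6, the substrate of S6 kinase downstream of mTOR, had 1068, 1088 and 1140.4 FPKM in left and 1165, 1316 and 1151 FPKM in right oil ducts, and its ratio did not pass the test (log2 ratio -0.14 ± 0.097 (SE), adjusted p = 0.281).

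Not every member was lower on the left. The 18 that did not pass the test were RPL3, RPL4, RPL7L1, RPL10, RPL13A, RPL14, RPL28, RPL32, RPL37, RPL38, RPLP1, RPS2, RPS3A, RPS6, RPS9, RPS19, RPS26 and RPS29. The 4 members on unplaced scaffolds were all among them, and so were the 2 least abundant genes, RPL13A and RPL14. RPS29, a zinc-binding protein of the small subunit's head, had 536, 343 and 236 FPKM in left and 814, 389 and 320.1 FPKM in right oil ducts, overlapping and scattered (log2 ratio -0.45 ± 0.30 (SE), adjusted p = 0.263). RPS3A, the most abundant, had 5389, 5248 and 5566 FPKM in left and 6836, 6103 and 6377 FPKM in right oil ducts, apart in every sample but not called (log2 ratio -0.25 ± 0.11 (SE), adjusted p = 0.0889).

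The 3 members with a positive ratio were RPS2, RPL38 and RPL10. RPS2, a protein at the mRNA entry of the small subunit, had 2382, 2089.6 and 2363 FPKM in left and 2264, 2056 and 2003 FPKM in right oil ducts (log2 ratio 0.11 ± 0.083 (SE), adjusted p = 0.316). RPL38, whose mutation in mice disturbs the translation of Hox mRNAs, had 294, 283 and 289 FPKM in left and 281, 284 and 251 FPKM in right oil ducts (log2 ratio 0.086 ± 0.095 (SE), adjusted p = 0.516). RPL10 had 3246, 3181 and 3202 FPKM in left and 3418, 3068 and 3012 FPKM in right oil ducts (log2 ratio 0.02 ± 0.079 (SE), adjusted p = 0.869). In all 3 genes the sides overlapped. The same 3, with RPL28 and RPS26, followed the other members least over the 12 samples: the Pearson r of their log2 level with the median of the other members was -0.524 for RPS2, -0.123 for RPL10, -0.0509 for RPL38, 0.0197 for RPL28 and 0.0277 for RPS26.

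**Figure D3:**
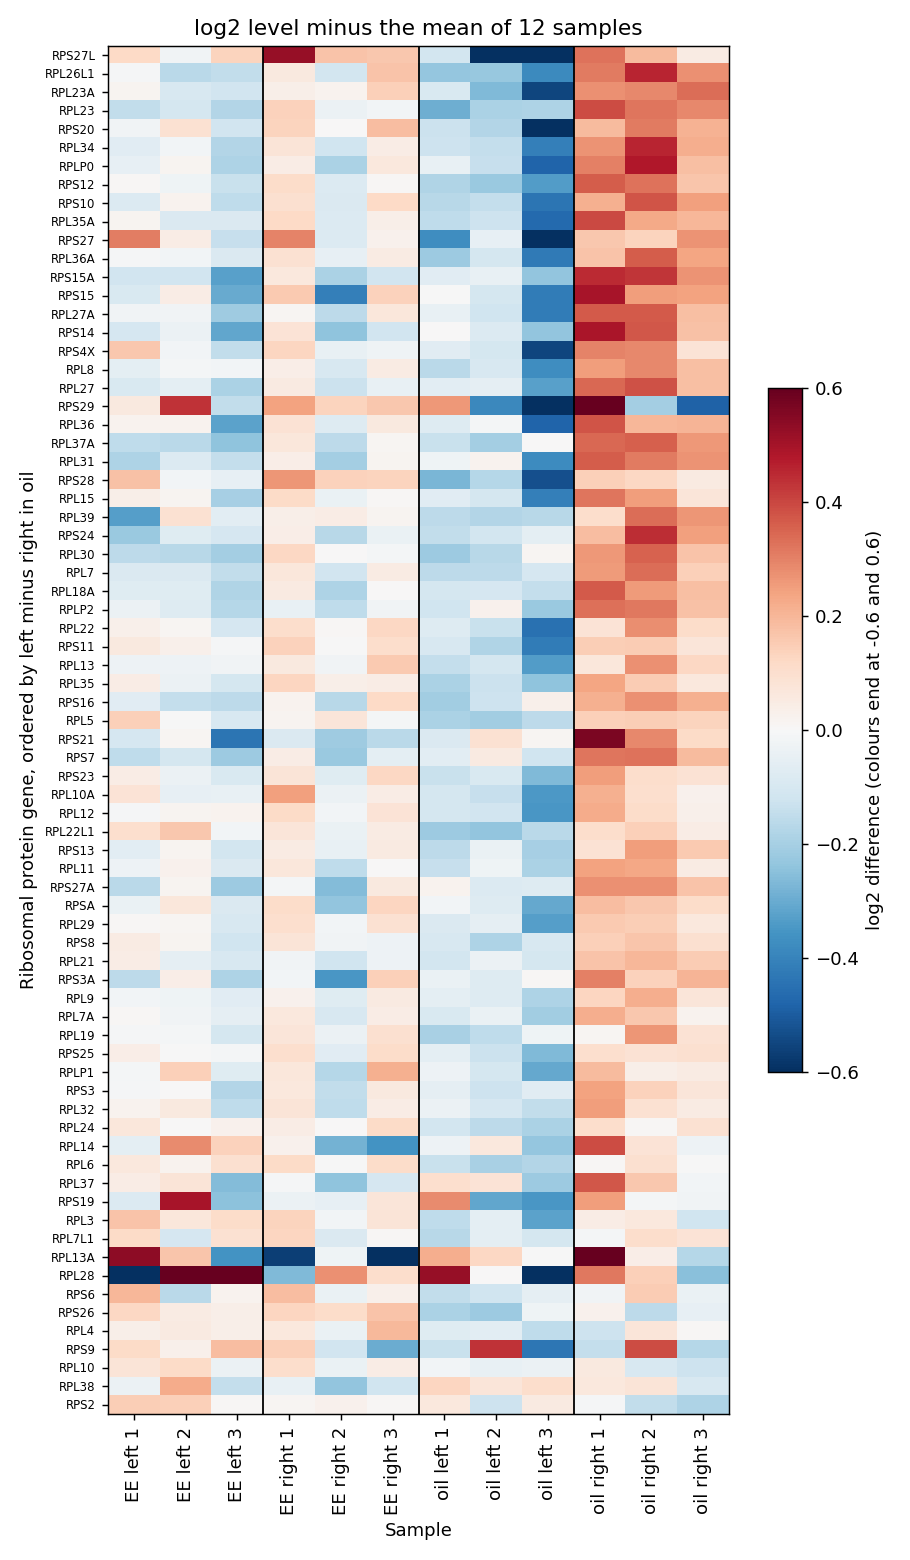
Log2 level of 74 of the 75 tested ribosomal protein genes in each of the 12 samples minus the gene's mean over the 12 samples, ordered by the left minus right ratio in oil with the lowest at the top. The 3 right oil samples are above the mean (red) and the 3 left oil samples below it (blue) for most genes. The EE samples mostly lie between, though the members' median deviation was -0.11 in left EE replicate 3 and -0.104 in left oil replicate 1. The bottom rows, RPS2 and RPL38 among them, break the pattern.

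Blood and scaling moved with this difference. The 15 erythroid transcripts summed to 13582 to 30657 CPM in left oil ducts and to 66685 to 152982 CPM in right oil ducts, and none of them was at 0 in any group. Haemoglobin alone took 1.35% to 3.01% of the counts in left and 6.11% to 12.7% in right oil ducts. With the log2 haemoglobin level of each sample as a covariate, 4 of the 57 calls remained (RPL23, RPL26L1, RPL5 and RPS12) and the median ratio was -0.22. The haemoglobin shares of the oil sides did not overlap, so side and blood cannot be told apart in this fit. For RPL23 the ratio was -0.528 with an SE of 0.118, against -0.557 with an SE of 0.076 without the covariate. Calls over all tested genes numbered 1190 with the covariate and 4422 without it. With haemoglobin genes left out of the counts 58 members were called lower. That fit keeps all other transcripts of blood cells, so it cannot show their part in the ratios. Scaling by library size alone placed the median of all tested genes at 0.18 and called 20 members lower and 2 higher (RPS2 and RPL38). Under this and TMM scaling the members' median minus that of all genes was -0.323. A factor per sample shifts all genes alike, so this value could hardly differ between scalings. Of all genes called, 50.5% were higher on the left with TMM scaling and 75.3% with library size alone.

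Markers of other cells also moved with the sides in oil. Of 7 tested macrophage transcripts 5 fell and 0 rose, where 18.1% of all tested genes were called lower and 18.4% higher. The macrophage list summed to 54.8 to 63.0 CPM in left and 153 to 170 CPM in right oil ducts. Of the 9 listed, 8 had counts in every left oil sample and 8 in every right oil sample. Of 14 skeletal muscle transcripts 6 were tested and 5 of these fell, where 18.1% of all tested genes were called lower. A gene can pass the filter through the 3 samples of 1 group alone. Lower calls among the few muscle genes tested may thus be partly fixed in advance and are given as a description. The muscle list summed to 18.1 to 35.1 CPM in left and 17.8 to 412 CPM in right oil ducts, so the samples of the sides overlapped. All 18 transcripts of dividing cells rose, where 18.4% of all tested genes were called higher. Their sums were 2861 to 3066 CPM in left and 863 to 962 CPM in right oil ducts. The part of these cell types in the ratios of the ribosomal protein genes was not tested. Without left oil replicate 1, right oil replicate 1 and right EE replicate 1 together, 38 members were called lower. That fit called 3573 of all tested genes between the sides in oil, against 4422 with all samples.

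In EE, by contrast with the counts in oil, 0 of 75 members were called between left and right ducts by edgeR, DESeq2 or limma, and 0.0826% of all tested genes, 10 genes, were called by edgeR. At an unadjusted p under 0.05 there were 2 members, RPL30 and RPL23, and 910 genes in all. The median ratio was -0.055 over the members and 0.006 over all tested genes, and 62 of 75 members had a negative ratio. In 4 members (RPL30, RPS27L, RPL23 and RPL23A) the 3 left samples lay below the 3 right ones, as in 6.16% of all genes, and in 0 members above, as in 6.48% of all genes.

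Levels in EE ducts were close on both sides. RPL26L1 had 1761, 1582 and 1595 FPKM in left EE ducts, against 1838, 1635 and 1987 FPKM in right EE ducts, ranges that overlapped (log2 ratio -0.15 ± 0.09 (SE), adjusted p = 0.763). RPL23 had 1939.8, 1999 and 1898 FPKM in left and 2365, 2096 and 2125 FPKM in right EE ducts, the right samples slightly above (log2 ratio -0.17 ± 0.076 (SE), adjusted p = 0.614). RPL30 averaged lowest on the left relative to the right (log2 ratio -0.22 ± 0.08 (SE), adjusted p = 0.513). Among the stalk genes and the MDM2-binding pair, ratios were -0.047 for RPLP0, -0.023 for RPLP1, -0.022 for RPLP2, -0.008 for RPL5 and -0.004 for RPL11, each smaller than its SE. The ratios of RPSA (-0.029), RPS6 (-0.036), RPS27A (-0.052), RPS4X (-0.017), RPL7L1 (0.019) and RPL22L1 (0.056) were also within 1 SE of 0. A p above the threshold does not show that the sides were equal.

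**Figure D4:**
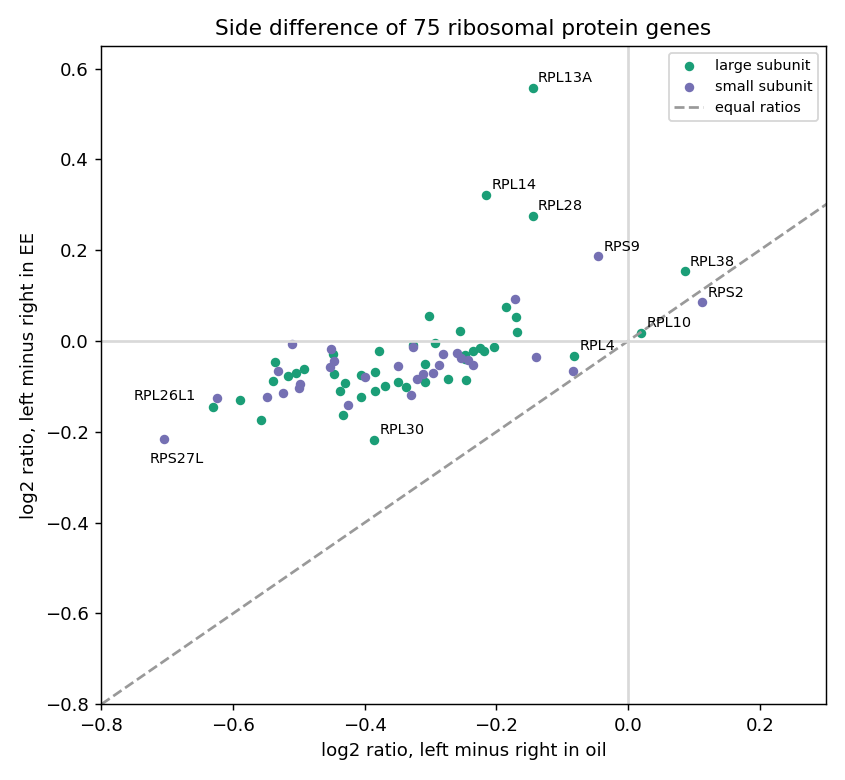
Left minus right log2 ratio of the 75 tested ribosomal protein genes in oil (horizontal) and in EE (vertical), coloured by subunit, with a dashed line where both are equal. Nearly all genes lie above the line and left of 0, with ratios of -0.71 to 0.11 in oil, and RPS2, RPL10 and RPL38 lie right of 0.

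Genes with the lowest ratios in oil tended to have the lowest in EE. Across the 75 members the ratios in oil and in EE, which share no sample, had a Pearson r of 0.592 and a Spearman rho of 0.698. This is a correlation across genes, which share libraries, lengths and base composition and are not independent replicates.

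The next comparison set EE against oil in left ducts. Here 5 members rose and 0 fell, 6.67% of the members where 13.3% of all tested genes were called, 6.79% higher and 6.46% lower. The genes were RPS27L, RPS28, RPL3, RPL22L1 and RPL6. The median ratio was 0.13 over the members and 0.003 over all tested genes, with 62 of 75 positive. In 22 members the 3 EE samples lay above the 3 oil samples, as in 15.7% of all genes.

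RPS28, at the mRNA exit of the small subunit, had 534, 467 and 456 FPKM in left EE ducts, against 390.3, 420.1 and 328 FPKM in left oil ducts (log2 ratio 0.36 ± 0.093 (SE), adjusted p = 0.0172). RPS27L had 45.6, 41.3 and 46.0 FPKM in left EE and 38.8, 24.4 and 24.7 FPKM in left oil ducts (log2 ratio 0.59 ± 0.17 (SE), adjusted p = 0.0326). RPL22L1 had 561, 586 and 518 FPKM in left EE and 449, 444 and 468 FPKM in left oil ducts (log2 ratio 0.29 ± 0.072 (SE), adjusted p = 0.0124). In each of these 3 genes all EE samples were above all oil samples. RPL3 had 1705, 1588 and 1636 FPKM in left EE and 1362, 1456 and 1213 FPKM in left oil ducts (log2 ratio 0.29 ± 0.088 (SE), adjusted p = 0.0378), and RPL6 had 1394, 1354 and 1427 FPKM in left EE and 1215, 1164 and 1181 FPKM in left oil ducts (log2 ratio 0.23 ± 0.072 (SE), adjusted p = 0.0458). These calls were fragile: 1 member was called without left EE replicate 1 or without left EE replicate 2, 2 without left oil replicate 3 and 3 without left EE replicate 3, and DESeq2 called 10 higher. Over all tested genes these fits called, in the same order, 1211, 1215, 1261, 1256 and 1961, against 1605 in the main fit.

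Other members named by role did not pass the test in left ducts. The genes with the largest uncalled ratios were RPS27 (0.41 ± 0.14, SE) and 2 of scattered level, RPS29 (0.40 ± 0.30) and RPL28 (0.39 ± 0.39). RPL5 had a ratio of 0.20 ± 0.077, RPL22 of 0.19 ± 0.095, RPS4X of 0.23 ± 0.12, RPS6 of 0.13 ± 0.097 and RPSA of 0.11 ± 0.10. The stalk genes had 0.14 for RPLP0, 0.17 for RPLP1 and 0.008 for RPLP2, and RPL11 had 0.088. RPL26L1 had 0.18, RPL7 0.032, RPL7L1 0.15 and RPS27A -0.072. RPS21 had the lowest ratio, -0.17 ± 0.12, and was not called.

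In right ducts, EE against oil gave calls in the opposite direction. Here 23 members fell and 0 rose, 30.7% of the members where 34% of all tested genes were called and 16.4% were called lower. The median ratio was -0.16 over the members and 0.003 over all genes, with 65 of 75 negative. In 36 members the 3 EE samples lay below the 3 oil samples, as in 22.3% of all genes, and in 2 members, RPS2 and RPS26, they lay above, as in 23.8% of all genes. The right oil samples used here are also those of the comparison of the sides in oil.

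RPS21, a small subunit protein, had the lowest ratio of the called members. It had 800.1, 733 and 759.8 FPKM in right EE ducts, against 1254, 1036 and 920.0 FPKM in right oil ducts (log2 ratio -0.49 ± 0.12 (SE), adjusted p = 0.00474). RPS15A, which binds the body of the subunit, had 1958, 1644 and 1736 FPKM in right EE and 2563, 2529 and 2261 FPKM in right oil ducts (log2 ratio -0.46 ± 0.093 (SE), adjusted p = 0.00121). RPS14, a platform protein lost in a human myelodysplastic syndrome, had 2576, 2062 and 2247 FPKM in right EE and 3421, 3154 and 2753 FPKM in right oil ducts (log2 ratio -0.44 ± 0.11 (SE), adjusted p = 0.00564). In all 3 the highest EE sample stayed below the lowest oil sample. RPL31, at the tunnel exit of the large subunit, had 1478, 1246 and 1452 FPKM in right EE and 1847, 1783 and 1729.5 FPKM in right oil ducts (log2 ratio -0.36 ± 0.10 (SE), adjusted p = 0.0106).

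Of the stalk, RPLP0 (log2 ratio -0.35 ± 0.12 (SE), adjusted p = 0.0313) and RPLP2 (log2 ratio -0.35 ± 0.082 (SE), adjusted p = 0.00372) fell in right ducts, and RPLP1 did not pass the test (log2 ratio -0.047 ± 0.11 (SE), adjusted p = 0.77). RPS12 (-0.27 ± 0.085), RPL23 (-0.30 ± 0.076), RPL26L1 (-0.31 ± 0.09), RPL7 (-0.24 ± 0.08) and RPS27A (-0.31 ± 0.09) fell as well. The ratios of the genes that had risen in left EE ducts were near 0 or positive on the right and not called: 0.10 ± 0.17 for RPS27L, 0.071 ± 0.092 for RPS28, 0.069 ± 0.087 for RPL3, -0.068 ± 0.072 for RPL22L1 and 0.04 ± 0.072 for RPL6. RPL5 (-0.12 ± 0.077), RPL11 (-0.20 ± 0.085), RPSA (-0.14 ± 0.10), RPS6 (0.029 ± 0.097), RPS4X (-0.20 ± 0.12), RPL22 (-0.079 ± 0.094) and RPS27 (-0.10 ± 0.14) were not called. RPL13A had the lowest ratio of all, -0.66 ± 0.39, at the lowest level.

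RPS26, a small subunit protein at the exit of the mRNA channel, ran the other way, with 1529, 1508 and 1573 FPKM in right EE ducts, against 1424, 1253 and 1353 FPKM in right oil ducts. The EE samples all lay above the oil samples, without a call (log2 ratio 0.19 ± 0.077 (SE), adjusted p = 0.0646). Here too haemoglobin moved with the exposure, at 1.66% to 5.65% of counts in right EE and 6.11% to 12.7% in right oil ducts. With its level as a covariate 4 members were called lower (RPL23, RPL37A, RPS15A and RPS21), in a fit that called 2359 of all genes, against 4122 without it. The haemoglobin shares of these 2 groups did not overlap, so exposure and blood cannot be told apart in that fit. The count of members called lower was 13 without right oil replicate 2 and 10 without right EE replicate 2. Of all tested genes 3401 and 3244 were called in these fits, against 4122 with all samples. With library size alone 1 member was lower (RPS15A) and 6 were higher (RPS26, RPS2, RPL4, RPL10, RPL3 and RPL6), and 75.7% of all calls were higher, against 51.8% with TMM scaling.

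Across the 75 members the EE effects in left and in right ducts, which share no sample, had a Pearson r of 0.607 and a Spearman rho of 0.621, so genes that were relatively high with EE on one side tended to be so on the other, around medians of opposite sign. RPS21 was near the bottom in both, with -0.17 in left and -0.49 in right ducts, and RPS27L near the top, with 0.59 in left and 0.10 in right ducts.

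The interaction asks whether the left minus right difference itself differed between EE and oil. It was called for 9 members, all higher (a less negative difference in EE), which is 12% of the members where 11.2% of all tested genes were called, 4.68% higher and 6.53% lower. The members' median was 0.28 and that of all genes 0.007, and 73 of 75 members were positive. The 9 genes were RPL26L1 (log2 ratio 0.49 ± 0.13 (SE), adjusted p = 0.0207), RPS12 (log2 ratio 0.47 ± 0.12 (SE), adjusted p = 0.0193), RPL23A (log2 ratio 0.46 ± 0.14 (SE), adjusted p = 0.0437), RPL34 (log2 ratio 0.45 ± 0.13 (SE), adjusted p = 0.0386), RPL35A (log2 ratio 0.44 ± 0.14 (SE), adjusted p = 0.0476), RPL36A, RPL8, RPL23 and RPL22L1. Of these, 8 are large subunit genes and 1, RPS12, is a small subunit gene, out of 45 and 30 tested; the difference between the subunits was not tested. RPLP0 (0.49 ± 0.17) and RPS27L (0.49 ± 0.24) had ratios as large without passing.

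The 4 group means of these genes show the shape. RPS12 averaged 3186 ± 162 FPKM in left EE, 3332 ± 227 in right EE, 2785 ± 152 in left oil and 4027 ± 284 FPKM in right oil ducts (SD, n = 3 each). RPL34 averaged 696 ± 38.6 FPKM in left EE, 739 ± 53.3 in right EE, 633 ± 67.7 in left oil and 920.3 ± 81.9 FPKM in right oil ducts. RPL35A, whose loss causes Diamond-Blackfan anaemia in humans, averaged 947 ± 39.5 FPKM in left EE, 999.9 ± 69.7 in right EE, 832 ± 105 in left oil and 1189.7 ± 89.0 FPKM in right oil ducts. In all 3 the EE groups lay between the oil groups. Over the 75 members, right oil ducts had the highest group mean in 61 and left oil ducts the lowest in 57. The count of interaction calls was 1 to 5 without any 1 of 7 samples (1 without right oil replicate 2, 2 without left EE replicate 2 or right EE replicate 2, 3 without left oil replicate 3 or left EE replicate 1, 4 without right oil replicate 1 and 5 without left oil replicate 1), while DESeq2 called 23 and library-size scaling 0. Over all tested genes the 7 fits called 1015 to 1467, DESeq2 1791 and library-size scaling 1515, against 1358 in the main fit.

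Summed over the 76 members, ribosomal protein transcripts reached 108073 ± 4855 TMM-scaled FPKM in left EE, 112413 ± 7623 in right EE, 101075 ± 5416 in left oil and 128802 ± 5739 FPKM in right oil ducts (SD, n = 3 each). Left and right oil ducts did not overlap, nor did right EE and right oil ducts. Left and right EE ducts overlapped, and so did left EE and left oil ducts. These sums, like the shares and ratios that follow, are given as descriptions, since the permutation tests run on them cannot give a p under 0.1.

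As a share of all counts the members took 8.27% ± 0.331 in left EE, 8.40% ± 0.398 in right EE, 7.64% ± 0.305 in left oil and 8.51% ± 0.475 in right oil ducts. This share depends on the haemoglobin counts in its denominator, and without them it was 8.41% in left EE, 8.74% in right EE, 7.80% in left oil and 9.32% in right oil ducts. Left oil ducts lay below both right oil and left EE ducts without overlap, with or without haemoglobin. As a share of summed FPKM, haemoglobin included, the sign between the sides was the other way, with members 1.844 percentage points higher in left than in right oil ducts and 1.148 points higher in left than in right EE ducts. The ratio of small to large subunit FPKM was 0.766 ± 0.0196 in left EE, 0.766 ± 0.0192 in right EE, 0.787 ± 0.0112 in left oil and 0.795 ± 0.0183 in right oil ducts, and groups overlapped in all 4 comparisons.

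**Figure D5:**
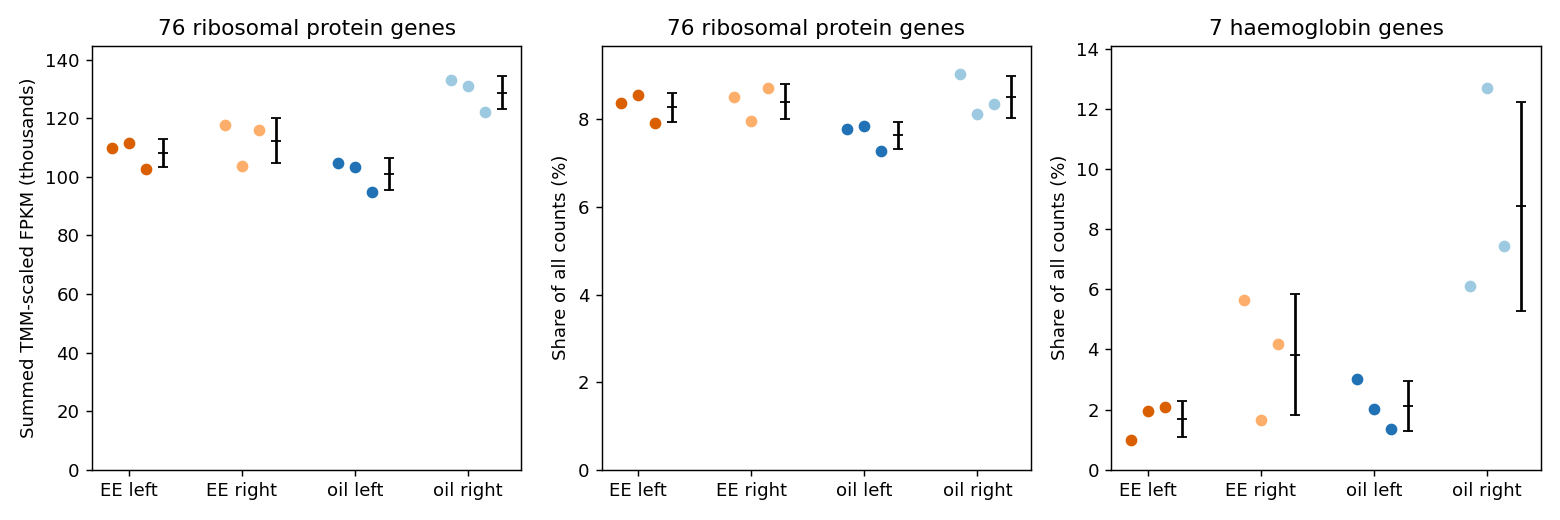
Summed TMM-scaled FPKM of the 76 ribosomal protein genes, their share of all counts, and the share of 7 haemoglobin genes in each sample of the 4 groups, with the mean and SD (n = 3) beside the points. Right oil ducts stand apart in the summed FPKM at 122282 to 133088 and hold the highest haemoglobin shares, while the members' share of all counts overlaps between right oil and EE ducts.

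Within a sample the members tended to deviate together from the mean of their group. Right EE replicate 2 was above its group's mean in 5 of the 75 genes, right oil replicate 3 in 8, left EE replicate 3 in 12 and left oil replicate 3 in 18, while the other 8 samples were above it in 48 to 65 genes. The haemoglobin share of right EE replicate 2 was 1.66%, against 5.65% and 4.17% in the other 2 right EE samples. Left oil replicate 3, at 1.351%, also had the lowest share of its group. Left EE replicate 3, at 2.098%, had the highest of its group, and right oil replicate 3, at 7.456%, lay in the middle of its group. Whether the haemoglobin share and these deviations are linked was not tested. Since 1 sample shifts nearly all members at once, the number of members called does not count independent observations.

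Other mRNAs that carry the 5-prime TOP motif, most of them for the translation machinery, were called lower or not at all in left against right oil ducts. Of 21 such genes tested 15 fell and 0 rose, with a median of -0.39, where 18.1% of all tested genes were called lower. EIF3E, a subunit of initiation factor eIF3, fell (log2 ratio -0.73 ± 0.12 (SE), adjusted p = 0.00026), and so did EEF2, the factor that moves the ribosome along the mRNA (log2 ratio -0.56 ± 0.10 (SE), adjusted p = 0.000484). Of 12 elongation and termination factors 6 fell and 0 rose (median -0.26, beside the same 18.1%), EEF1B2, which recharges elongation factor eEF1A, among them (log2 ratio -0.45 ± 0.094 (SE), adjusted p = 0.00162). These lists overlap. RACK1, a scaffold protein bound to the small subunit, fell as well (log2 ratio -0.62 ± 0.12 (SE), adjusted p = 0.00103).

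Factors that build ribosomes had few lower calls, and a share of higher calls near that of all genes. Of 90 tested ribosome biogenesis factors 17 rose and 4 fell in left against right oil ducts, with a median of 0.088. Of all tested genes 18.4% were called higher and 18.1% lower. GNL3, the nucleolar GTPase nucleostemin, rose (log2 ratio 0.37 ± 0.08 (SE), adjusted p = 0.002), as did PWP2, a part of the small subunit processome (log2 ratio 0.42 ± 0.095 (SE), adjusted p = 0.00292). NOP53 (log2 ratio -0.57 ± 0.11 (SE), adjusted p = 0.000587) and SBDS (log2 ratio -0.52 ± 0.13 (SE), adjusted p = 0.0062), which act on the maturing large subunit, fell. POLR1A, the largest subunit of RNA polymerase I, which transcribes rRNA, rose (log2 ratio 0.39 ± 0.097 (SE), adjusted p = 0.0048), and so did POLR1E (log2 ratio 0.39 ± 0.13 (SE), adjusted p = 0.0299). These were 2 of 13 tested, with 0 lower, beside the same shares of all genes. Of 35 initiation factors 5 rose and 14 fell (median -0.057), where 18.4% of all tested genes were called higher and 18.1% lower, EIF4G1, the scaffold of the cap-binding complex, being higher (log2 ratio 0.29 ± 0.087 (SE), adjusted p = 0.0157) and EIF3M lower (log2 ratio -0.54 ± 0.088 (SE), adjusted p = 0.000209). Chaperones and partners of ribosomal proteins split into 5 higher and 3 lower of 16, beside the same shares of all genes. PA2G4 was higher (log2 ratio 0.52 ± 0.076 (SE), adjusted p = 6.97e-05) and NACA lower (log2 ratio -0.26 ± 0.084 (SE), adjusted p = 0.0222).

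With EE, part of the biogenesis factors rose on each side. In left ducts 11 of 90 rose and 0 fell (median 0.16), where 6.79% of all tested genes were called higher and 6.46% lower, PES1 (log2 ratio 0.45 ± 0.083 (SE), adjusted p = 0.00162) and NOLC1 (log2 ratio 0.41 ± 0.085 (SE), adjusted p = 0.00395) among them. In right ducts 35 of 90 rose and 3 fell (median 0.22), where 17.6% of all tested genes were called higher and 16.4% lower, with NPM1, the nucleolar chaperone nucleophosmin, higher (log2 ratio 0.59 ± 0.10 (SE), adjusted p = 0.000354) and SBDS lower (log2 ratio -0.63 ± 0.13 (SE), adjusted p = 0.00163). Read against the same shares of all genes, the TOP mRNAs outside the ribosome counted 6 higher and 0 lower of 21 in left ducts (median 0.20) and 2 higher and 5 lower in right ducts (median -0.20). PABPC1, which binds poly(A) tails, rose in left ducts (log2 ratio 0.43 ± 0.086 (SE), adjusted p = 0.00312), and EIF3E (log2 ratio -0.68 ± 0.12 (SE), adjusted p = 0.000536) and TPT1 (log2 ratio -0.68 ± 0.14 (SE), adjusted p = 0.00121) fell in right ducts. Beside those shares of all genes, 1 of the 12 elongation and termination factors was higher on the left and 2 were lower on the right. Of the 35 initiation factors 4 were higher on the left and 6 were called in each direction on the right. NPM1 is also among the TOP mRNAs, and PABPC1 and EIF3E are also among the initiation factors, so these counts share genes.

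Among regulators of ribosomal protein synthesis, some of the called genes had ratios beyond the range of the ribosomal protein genes. In left against right oil ducts 1 of 22 rose and 7 fell (median -0.18), where 18.4% of all tested genes were called higher and 18.1% lower. DDIT4 (log2 ratio -1.56 ± 0.17 (SE), adjusted p = 2.97e-06) and SESN1 (log2 ratio -0.74 ± 0.11 (SE), adjusted p = 5.69e-05), stress-induced inhibitors of mTOR complex 1, fell, and MYCN, a transcription factor that drives ribosome production, rose (log2 ratio 0.48 ± 0.12 (SE), adjusted p = 0.00612). LARP1 had a ratio of 0.012 ± 0.086 between the sides in oil (SE; adjusted p = 0.928). In right ducts EE gave lower DDIT4 (log2 ratio -1.33 ± 0.16 (SE), adjusted p = 1.69e-05) and SESN1 (log2 ratio -0.53 ± 0.10 (SE), adjusted p = 0.00104) and higher MYCN (log2 ratio 0.97 ± 0.12 (SE), adjusted p = 1.96e-05) and LARP1 (log2 ratio 0.26 ± 0.086 (SE), adjusted p = 0.0278), the 2 higher calls beside 4 lower. In left ducts MYC (log2 ratio 0.72 ± 0.15 (SE), adjusted p = 0.00311) and LARP1 (log2 ratio 0.33 ± 0.086 (SE), adjusted p = 0.0184) rose and 0 of the list fell. These EE counts are also out of 22 regulators. Of all tested genes 17.6% were called higher and 16.4% lower with EE in right ducts, and 6.79% and 6.46% in left ducts. The p53 response list had 4 of 8 tested genes lower on the left in oil and 4 lower with EE in right ducts, where 18.1% and 16.4% of all tested genes were called lower, GADD45A in both (log2 ratio -1.03 ± 0.11 (SE), adjusted p = 2.16e-06 for the sides, log2 ratio -1.10 ± 0.11 (SE), adjusted p = 1.41e-06 for EE on the right). SESN1 stands in both the p53 response list and that of the regulators, so their counts share a gene. In the interaction 5 of 21 TOP mRNAs, 2 of 12 elongation and termination factors and 3 of 35 initiation factors were called higher and 0 lower, where 4.68% of all tested genes were called higher and 6.53% lower. EIF3E (log2 ratio 0.65 ± 0.17 (SE), adjusted p = 0.0226) and EEF1B2 (log2 ratio 0.53 ± 0.13 (SE), adjusted p = 0.0153) were called, and each stands in 2 of these lists, so the counts share genes. Other lists differed: 0 of 90 biogenesis factors and 0 of 13 RNA polymerase I genes were called in the interaction. Of 16 chaperones and partners 0 were higher and 1 lower, of 22 regulators 2 higher and 1 lower, and of 8 p53 response genes 3 higher and 0 lower.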

How the data were processed

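Poly(A) RNA of 12 duct samples was sequenced. Per the submitters' processing notes the tools were cutadapt 1.9.1, HISAT2 2.0.1, HTSeq 0.6.1 and DESeq2 1.6.3. Of the genome build, the strand setting and the handling of multiply mapping reads nothing is stated in the labels. All 16013 genes had, by symbol, the start and end of the RefSeq gene table of Coturnix japonica 2.1, so coordinates are given on that build. The deposited table gives unnormalized counts for each gene, the authors' FPKM values, which were returned from the counts and the deposited exonic sizes to within 0.005, and gene descriptions. Every value column was matched to a sample, and no row lacked a gene.

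Tests used edgeR 4.0.16 under R 4.3.3 on the counts (quasi-likelihood, two-sided, scaled by TMM), in 1 model of 12 samples with 4 group means, after keeping genes of at least 1 FPKM in at least 3 samples. A gene was called at a Benjamini-Hochberg adjusted p under 0.05 over all 12113 genes. SE was the log2 ratio divided by the root of the F value. Levels are FPKM recomputed from the counts with library sizes times TMM factors. Sums and shares over the members are given as descriptions. Exact two-sided permutation tests of 3 samples against 3 were run on them, but cannot give a p under 0.1. The fit was tested on simulated data with known changes. Alternatives were DESeq2 1.42.0, limma 3.58.1 on log2(FPKM + 1) and log2(FPKM + 0.1), other scalings, no filter, a haemoglobin covariate, a replicate block and leaving out samples.

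The members and the lists were chosen with earlier results of these data known. Named were the 5 highest and 5 lowest called ratios of each comparison, the divergent copies with the genes they resemble, stalk genes, RPSA, RPL5, RPL11, RPS6 and RPS27A, the 5 highest and 5 lowest levels, the 5 members least like the median member, and up to 2 called genes per list and direction; RPL4, RPL30, RPS26, RPS29 and the genes in short lists of calls were added after their values were seen. Same-numbered samples were not taken as pairs, since the labels do not pair them and their deviations did not correlate above 0.1 in every pair (-0.222 to 0.157). Between left and right ducts these correlations were 0.053, 0.144 and 0.157 in oil and -0.019, -0.031 and 0.072 in EE. Samples of both sides of 1 embryo can thus not be excluded. The values of 1 member are not reported here by name; it counts in the summaries. No sequence is printed, as a genome was not used here.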

Additional observations from a re-analysis of the deposited data

Results flagged for a closer look

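For 9 ribosomal protein genes the left minus right difference in EE differed from that in oil by the interaction test of edgeR (adjusted p under 0.05), which is why they are listed here. They are 12% of the members tested, where 11.2% of all tested genes were called, 4.68% higher and 6.53% lower. The differences of the log2 ratios, EE minus oil, were 0.486 for RPL26L1, 0.467 for RPS12, 0.459 for RPL23A, 0.451 for RPL34, 0.438 for RPL35A, 0.433 for RPL36A, 0.419 for RPL8, 0.382 for RPL23 and 0.358 for RPL22L1. In EE the side ratios of these genes ran from -0.17 (RPL23) to 0.056 (RPL22L1), and in oil from -0.63 (RPL26L1) to -0.30 (RPL22L1). RPL8, a core protein of the large subunit, averaged 1963 ± 35.1 FPKM in left EE, 2003 ± 109.9 in right EE, 1735 ± 168 in left oil and 2367 ± 90.8 FPKM in right oil ducts (SD, n = 3 each). RPL36A averaged 683 ± 19.8 FPKM in left EE, 717 ± 35.4 in right EE, 591 ± 65.5 in left oil and 839 ± 57.9 FPKM in right oil ducts. Adjusted p-values were 0.0193 to 0.0476, and with library-size scaling none of the 9 passed, while RPS12 and RPL23 passed with the haemoglobin covariate. Leaving out 1 sample at a time gave 1 to 9 members called higher in the interaction. RPL23A and RPL35A each lost the call in 10 of these fits.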

How the results depend on the processing

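With DESeq2's size factors in edgeR, with no filter on low values, with haemoglobin genes left out and with the members left out of the TMM factors, every count of members called stayed within 1.5 times its value, and every median moved by less than the spread between replicates. Library-size scaling gave, for left minus right in oil, 2 higher, 20 lower and a median of -0.146, for EE minus oil in right ducts 6 higher, 1 lower and a reversed median of 0.008, and for the interaction 0 higher and a median of 0.124. It placed the median of all genes at 0.176, 0.171 and -0.146 in these 3 comparisons and called 4976, 4583 and 1515 of them. Limma on log2(FPKM + 1) gave 2, 21 and -0.144, then 6, 1 and a reversed 0.01, then 0 and 0.122. With + 0.1 it gave 2, 21 and -0.144, then 6, 1 and a reversed 0.01, then 0 and 0.123. Over all tested genes limma with + 1 called 4796 (75.1% higher), 4486 (76.7% higher) and 1309 (22.3% higher), and with + 0.1 it called 4817, 4491 and 1303. DESeq2 called 10 members higher for EE minus oil in left ducts, 1 higher in right ducts and 23 higher in the interaction. Over all tested genes it called 1961, 4412 and 1791 in these comparisons, against 1605, 4122 and 1358 in the main fit. With the haemoglobin covariate, 4 members were lower in left oil ducts (median -0.217), the median between EE sides was a reversed 0.028, 4 were lower with EE in right ducts and 3 higher in the interaction, and RPSA, left minus right in oil, reversed to 0.024. Over all tested genes the covariate fit called 1190 between oil sides, 5 between EE sides, 2359 with EE in right ducts and 981 in the interaction. Without 1 library of 3 groups together (left oil 1, right oil 1, right EE 1) the counts were 2 higher in left ducts, 13 lower in right ducts and 4 higher in the interaction. That fit called 1272, 3364 and 1228 of all tested genes in these comparisons. Both limma fits used the authors' FPKM, which are scaled to total counts without TMM factors. With log2(FPKM + 1) the median of all genes was 0.156, 0.153 and -0.127 in the 3 comparisons given for library-size scaling. The causes of the shifts in this section were not tested, except that the library-size and limma shifts are also those of all genes.

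Leaving out 1 sample at a time gave 44 to 59 members lower for left minus right in oil (median -0.363 to -0.282), 0 called in EE (-0.117 to -0.02), 1 to 5 higher for EE minus oil in left ducts (0.075 to 0.161), 10 to 27 lower and 0 to 1 higher in right ducts (-0.217 to -0.141) and 1 to 9 higher in the interaction (0.231 to 0.321). Over all tested genes these fits called 3578 to 4416 between the oil sides and 4 to 52 between the EE sides. For EE minus oil they called 1211 to 1678 genes in left and 3244 to 4183 in right ducts, and 1015 to 1467 in the interaction. The members' share of counts, in percentage points, was -1.062 to -0.6063 for left minus right in oil, -0.3488 to 0.05727 in EE (reversed to 0.05727 without left EE 3 and 0.03573 without right EE 3), 0.4623 to 0.8217 for EE minus oil in left ducts and -0.2974 to 0.1581 in right ducts (reversed to 0.1581 without right oil 1 and 0.114 without right EE 2). Without haemoglobin in the total this share differed by -1.52 between oil sides and by -0.5822 for EE in right ducts. As a share of summed FPKM it differed by 1.844 between oil sides and 1.148 between EE sides, both reversed, by 1.513 for EE in left ducts and by 2.209, reversed, in right ducts.

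With the replicate number as a block, 56 members were lower for left minus right in oil, 4 higher for EE minus oil in left ducts, 24 lower in right ducts, 10 higher in the interaction and 0 called between EE sides. Over all tested genes this fit called, in the same order, 4318, 1564, 4035, 1285 and 4, against 4422, 1605, 4122, 1358 and 10 in the main fit. Of 50 calls of named members, 4 held in every alternative: RPL23, RPL26L1 and RPS12 for left minus right in oil and RPS15A for EE minus oil in right ducts. The smallest ratio called for left minus right in oil was that of RPL6, -0.20, and its call was lost in 6 of the fits that left out 1 sample. The smallest difference detectable at this depth was not measured.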

Other observations

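A further ribosomal protein gene fell outside the naming rule. RPL17, listed as LOC107325926 with the description 60S ribosomal protein L17, averaged 1030 ± 18.2 FPKM in left EE, 1055 ± 14.5 in right EE, 825 ± 75.8 in left oil and 1034 ± 39.6 FPKM in right oil ducts (SD, n = 3 each). It was lower in left than in right oil ducts (log2 ratio -0.33 ± 0.077 (SE), adjusted p = 0.00358 by edgeR) and higher in left EE than in left oil ducts (log2 ratio 0.32 ± 0.077 (SE), adjusted p = 0.0102).

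The members were spread over the genome. Chromosome 1 held 9, chromosomes 2 and 4 held 7 each, and the Z chromosome, of which female birds carry a single copy, held RPS6, RPS23 and RPL37. The side ratios of these 3 in oil were -0.14 ± 0.097 for RPS6, -0.31 ± 0.082 for RPS23 and -0.19 ± 0.12 for RPL37 (SE), and RPS23 passed the test (adjusted p = 0.0075). RPS2 (chromosome 14, 6102164 to 6104179) and RPL3L (chromosome 14, 6092707 to 6099485) lie near each other on chromosome 14 and differed widely in level, with a mean of 2282 FPKM for RPS2 and 28 counts over all samples for RPL3L.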
